A study of Rattus norvegicus with 6 samples.

Results

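Tat, Hpd, Hgd, Fah, Tdo2, Kmo, Kynu and Haao encode 8 liver enzymes that break down the aromatic amino acids tyrosine and tryptophan, and they were followed in liver RNA from animals on a high-fat diet with or without a herbal preparation. The genes were chosen by symbol among the 32930 genes of the deposited table, each symbol stood on 1 row, and all 8 passed the expression filter that left 18455 genes for testing. The HFD group held 3 liver libraries from animals on the high-fat diet that received the vehicle, 0.5% sodium carboxymethyl cellulose (CMC-Na). The HTG group held 3 liver libraries from animals on the same diet. These animals were treated with Huazhuo Tiaozhi granule (HTG), a mixture of extracts from Chinese herbs, and the labels give 12 weeks for both interventions. For rats, the methods of the study describe 12 weeks of the diet, with the drugs given only during the last 8 weeks. In the label field for the treatment, HTG is written HCG. A group on a normal diet was not analysed here. All 6 libraries thus share the high-fat diet, and only HTG against the vehicle group could be compared. The labels name the vehicle for the HFD group alone. The methods of the study, written for rats, describe CMC-Na as the medium of the drugs too. The labels call the animals rats, the methods of the study describe mice of the C57BL/6 J strain for the RNA sequencing, while the rows of the table are mouse Ensembl genes, and the values are reported under those mouse symbols.

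Phenylalanine is turned into tyrosine in the liver, and tyrosine is then taken apart in a fixed order: Tat removes its amino group, Hpd forms homogentisate, Hgd opens the aromatic ring, and Fah makes the last cut to fumarate and acetoacetate. Inherited loss of Fah or Tat gives tyrosinaemia, and loss of Hgd gives alkaptonuria. Tryptophan enters its main route of breakdown through Tdo2, and kynurenine is then handled by Kmo, Kynu and Haao on the way to quinolinate, from which the cell can make NAD. Tat and Tdo2 are classic glucocorticoid-induced enzymes of the hepatocyte and catalyse the entry steps of their routes.

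Each gene has an estimated count in every library together with an FPKM, which scales the reads of a gene by its length and by the depth of the library. Estimated counts summed to between 50648778 in HTG library 3 and 90563477 in HTG library 2. Among counts of 1 to 9, 4 was the most frequent (6450 times), and 8 (3333) stood above 7 (1521) and 9 (1170). Counts of 1 (5104), 2 (4229) and 3 (2549) were common as well. On this pattern 1 sequenced fragment was taken as 4 counts, which the sources do not state. That assumption gives the libraries 12662194 to 22640869 fragments. The least counted of the 8 genes, Kynu, had at least 4735 counts in every library, so counting error was small beside the spread between libraries. CPM stands for counts scaled to a common library size (TMM), and values of several libraries are always listed in the order of their numbers, HFD first. Every fold change below is that of the HTG group against the HFD group on the log2 scale, from edgeR's quasi-likelihood test fitted on all genes tested, with p-values adjusted over all of them. The labels only number the libraries within a group, so the p-values measure the spread between these libraries, which may be technical.

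In the HTG group the 2 entry enzymes were the lowest relative to the HFD group, Tdo2 at 3.32-fold and Tat at 2.49-fold lower mean CPM, followed by Hgd at 1.97-fold lower. Kynu and Hpd were lower by smaller amounts, and Fah, Haao and Kmo differed by less than the spread between libraries. None of the 8 genes had an adjusted p under 0.05 in edgeR's quasi-likelihood test, a threshold that 0.00542% of the genes tested passed downward. Tdo2, Hgd and Tat had adjusted p-values under 0.1 and were lower, against 5.43% of the genes tested that were lower at that threshold. With an unadjusted p under 0.05 as the limit, 4 of the 8 genes were lower and 0 higher, against 12.4% and 12.3% of all genes tested. The CPM of the groups did not overlap in 5 of the 8, all lower in the HTG group, against 15.5% lower and 16.5% higher among the genes tested. Past both an unadjusted p of 0.05 and a log2 fold change of 1 in size, 2 of the 8 genes were lower, against 3.88% of the genes tested. Other tools placed 3 genes, Tat, Hgd and Tdo2, under an adjusted p of 0.05. They were DESeq2, which called 6.06% of its genes lower, and limma on log2(FPKM + 0.1), which called 5.05% lower. This limma fit kept genes with a mean of at least 1 FPKM. Without that filter the adjusted p-values in limma were 0.104 for Tdo2, 0.094 for Hgd and 0.123 for Tat. The median log2 fold change of the 8 genes was -0.55, and that of all genes tested was 0.03.

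**Figure D1:**
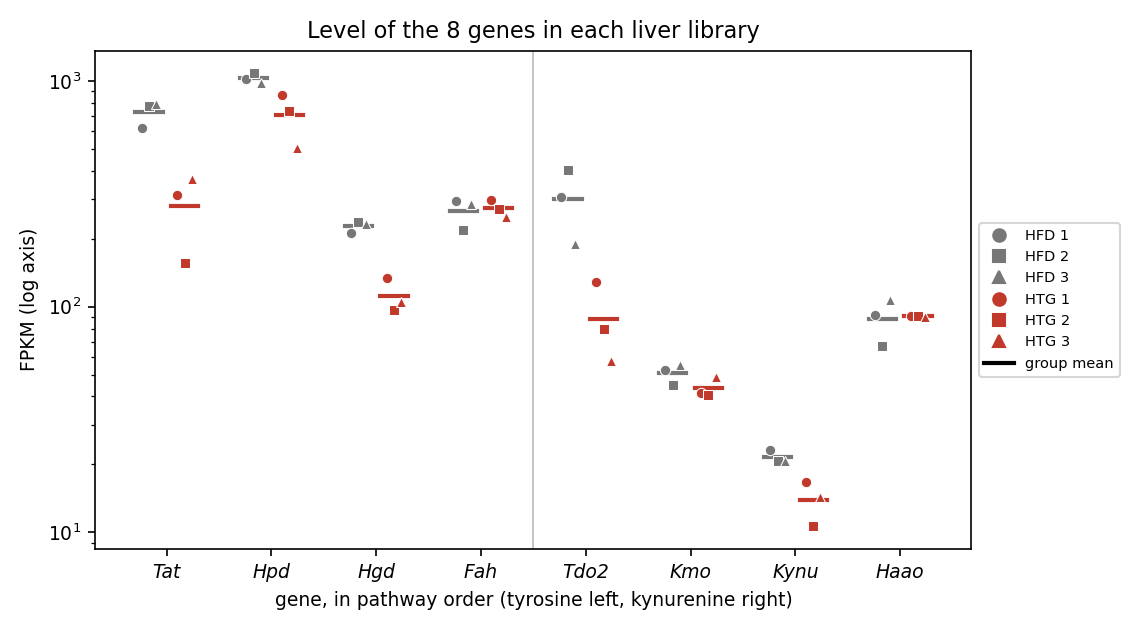
FPKM on a log axis for the 8 genes in each of the 3 HFD (grey) and 3 HTG (red) libraries, with symbols for the library number and bars for group means. The HTG libraries lay below every HFD library for Tat, Hpd, Hgd, Tdo2 and Kynu, and the groups overlapped for Fah, Kmo and Haao.

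Tat (ENSMUSG00000001670, chromosome 8, 110717069 to 110726435, plus strand), tyrosine aminotransferase, measured 619.5, 771 and 792 FPKM under HFD. Under HTG it measured 313, 157 and 366 FPKM. The highest HTG library thus lay well below the lowest HFD library, and HTG library 2 stood lowest of all. On the log2 scale Tat differed by -1.32 (standard error 0.37, 95% interval from -2.15 to -0.48), with an unadjusted p of 0.00654 and an adjusted p of 0.0839 in edgeR's quasi-likelihood test. Of the genes tested, 3.82% had a lower log2 fold change.

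Hpd (ENSMUSG00000029445, chromosome 5, 123309870 to 123320790, minus strand), the dioxygenase that acts on 4-hydroxyphenylpyruvate, was the most abundant of the 8 genes per length, at 1023, 1080.1 and 976 FPKM under HFD. The HTG libraries gave 870.5, 733 and 506 FPKM. The groups did not overlap, but HTG library 1 lay close to the HFD range. The log2 fold change of Hpd was -0.51 (standard error 0.25, 95% interval from -1.09 to 0.06), with an unadjusted p of 0.0739 and an adjusted p of 0.25 in edgeR's quasi-likelihood test. Without HTG library 1 the unadjusted p of Hpd was 0.0147 with a log2 fold change of -0.75, and without HTG library 3 the log2 fold change was -0.35. Hpd lies within the span of Psmd9 on the other strand, whose counts were between 748 and 3666, far below the 57983 to 169586 counts of Hpd.

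Hgd (ENSMUSG00000022821, chromosome 16, 37400515 to 37452382, plus strand), homogentisate 1,2-dioxygenase, stood at 211, 238 and 233 FPKM under HFD. It stood at 134, 96.2 and 104 FPKM under HTG, with a wide gap between the groups. For Hgd the log2 fold change was -0.98 (standard error 0.23, 95% interval from -1.50 to -0.46), with an unadjusted p of 0.00232 and an adjusted p of 0.0616 in edgeR's quasi-likelihood test. Without HTG library 1 that adjusted p was 0.0469.

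Fah (ENSMUSG00000030630, chromosome 7, 84234367 to 84255930, minus strand), fumarylacetoacetate hydrolase, closes the route and measured 293, 219 and 285 FPKM under HFD. Under HTG it measured 296, 269.8 and 251 FPKM. The values of the groups were interleaved. The log2 fold change of Fah was 0.09 (95% interval from -0.37 to 0.54), with an unadjusted p of 0.669 in edgeR's quasi-likelihood test. The intervals of Hgd and Fah, which act only 1 isomerisation step apart, did not overlap, but the difference between the 2 genes was not tested.

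Tdo2 (ENSMUSG00000028011, chromosome 3, 81864397 to 81883509, minus strand), tryptophan 2,3-dioxygenase, showed the largest difference of the 8 genes. It stood at 305, 401 and 189.5 FPKM under HFD. Only 128, 79.9 and 57.6 FPKM were measured under HTG. The HFD libraries themselves spread widely, with HFD library 3 lowest, and still no HTG library reached them. The log2 fold change of Tdo2 was -1.73 (standard error 0.39, 95% interval from -2.62 to -0.84), with an unadjusted p of 0.00192 and an adjusted p of 0.0612 in edgeR's quasi-likelihood test. Without HTG library 1, that adjusted p was 0.0453. Of the genes tested, 2.08% had a lower log2 fold change.

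Kmo (ENSMUSG00000039783, chromosome 1, 175447947 to 175488419, plus strand), kynurenine 3-monooxygenase, measured 52.5, 44.9 and 55.1 FPKM under HFD. The HTG values were 41.5, 40.5 and 48.7 FPKM, and HTG library 3 lay above HFD library 2. The fitted log2 fold change of Kmo was -0.16 (95% interval from -0.62 to 0.29), with an unadjusted p of 0.431 in edgeR's quasi-likelihood test. Kmo overlaps Fh1 on the other strand. Fh1 had between 9644 and 29821 counts, as many as Kmo itself with 12383 to 18821. As it is not stated whether counting used the strand, counts of the shared stretch are uncertain for both.

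Kynu (ENSMUSG00000026866, chromosome 2, 43445341 to 43572734, plus strand), kynureninase, was the least abundant of the 8 per length. It measured 23.2, 20.8 and 20.8 FPKM under HFD, compared with 16.7, 10.7 and 14.3 FPKM under HTG. The HFD libraries lay close together and above every HTG library. For Kynu it was -0.58 on the log2 scale (standard error 0.23, 95% interval from -1.10 to -0.06), with an unadjusted p of 0.0321 and an adjusted p of 0.16 in edgeR's quasi-likelihood test. The unadjusted p was over 0.05 without HFD library 1 (0.0806), HFD library 2 (0.066), HTG library 2 (0.0836) or HTG library 3 (0.054), and the log2 fold change of -0.38 without HTG library 2 was over 1.5 times smaller.

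Haao (ENSMUSG00000000673, chromosome 17, 84138585 to 84154241, minus strand), 3-hydroxyanthranilate 3,4-dioxygenase, makes the precursor of quinolinate. It measured 91.5, 66.8 and 107 FPKM under HFD, compared with 91.1, 90.5 and 90.2 FPKM under HTG. All HTG values thus lay inside the HFD range. Haao had a log2 fold change of 0.09 (95% interval from -0.40 to 0.58), with an unadjusted p of 0.678 in edgeR's quasi-likelihood test.

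The order of the levels per length differed between the groups. In the HFD group it ran from Hpd (1026 ± 52.4 FPKM, SD, n = 3) and Tat (727 ± 94.1) through Tdo2 (299 ± 106), Fah (265 ± 40.6) and Hgd (227 ± 14.3) to Haao (88.4 ± 20.3), Kmo (50.8 ± 5.33) and Kynu (21.6 ± 1.39). In that order the ranges of Tdo2 and Fah overlapped, as did those of Fah and Hgd, and the other neighbours were separate. In the HTG group Hpd stayed the most abundant (703 ± 184 FPKM, SD, n = 3), followed by Tat (278 ± 109) and Fah (272 ± 22.9) with overlapping ranges. Then came Hgd (112 ± 20.0), Haao (90.6 ± 0.484) and Tdo2 (88.6 ± 36.1), of which the last pair overlapped, and Kmo (43.6 ± 4.48) and Kynu (13.9 ± 3.03) were again lowest. Tdo2 thus moved from the third to the sixth place. No test was made between genes.

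Ratios between genes of 1 library do not depend on the scaling between libraries. The FPKM ratio of Tat to Fah was 2.12, 3.52 and 2.78 under HFD, compared with 1.06, 0.58 and 1.46 under HTG, so that Tat ran ahead of Fah in all HFD libraries and below it in HTG library 2. The ratio of Hgd to Fah was 0.721, 1.09 and 0.817 under HFD, compared with 0.453, 0.356 and 0.417 under HTG. The ratio of Tdo2 to Haao was 3.33, 6.01 and 1.77 under HFD, compared with 1.41, 0.883 and 0.639 under HTG. In these 3 ratios the groups did not overlap, but each sets a gene that was lower by itself over one whose groups overlapped. The ratio of Fah to Haao, by contrast, lay between 2.66 and 3.28 in the HFD libraries and between 2.78 and 3.25 in the HTG libraries. The groups also overlapped in the ratios of Hpd to Tat and of Kynu to Kmo. With 3 libraries against 3, an exact two-sided permutation test of a single value cannot go below p = 0.1.

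**Figure D2:**
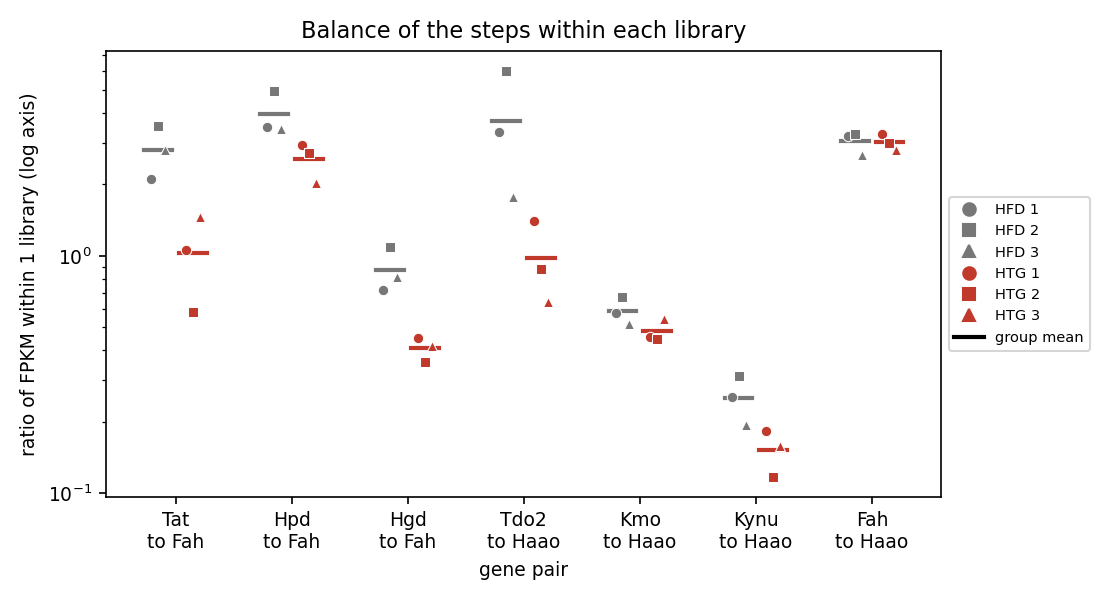
Ratio of the FPKM of 2 genes within the same library, on a log axis, for 7 gene pairs in the 3 HFD (grey) and 3 HTG (red) libraries, with bars for group means. The HTG libraries lay below all HFD libraries for Tat, Hpd and Hgd to Fah and for Tdo2 and Kynu to Haao, and the groups overlapped for Kmo to Haao and for Fah to Haao.

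Together the 8 genes took 0.714%, 0.777% and 0.708% of all counts under HFD, compared with 0.514%, 0.403% and 0.399% under HTG. Relative to the hepatocyte markers described next, their sum was 75.7, 81.4 and 58.8 per 1000 marker CPM under HFD, compared with 64.5, 51.3 and 49.7 under HTG, and there the groups overlapped. The tyrosine genes Tat, Hpd, Hgd and Fah summed to 5309 ± 486 CPM in the HFD group and 3277 ± 562 CPM in the HTG group (SD, n = 3 each). The kynurenine genes Tdo2, Kmo, Kynu and Haao summed to 2026 ± 405 CPM and 1133 ± 167 CPM (SD, n = 3 each). In both routes the HTG sums lay below all HFD sums, but each sum follows its most abundant genes. Tdo2 alone gave 1215 ± 492 CPM in the HFD group and 366 ± 147 CPM in the HTG group (SD, n = 3 each). Kmo and Haao overlapped between the groups.

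The summed level of the hepatocyte markers was also lower in the HTG group, with Alb as its largest part. The 6 markers Alb, Ttr, Apob, Tf, Hnf4a and Cps1 summed to between 90497 and 117293 CPM in the HFD libraries and to between 72780.2 and 86647 CPM in the HTG libraries. At an unadjusted p under 0.05, 2 of the 6 were lower and 0 higher, against 12.4% and 12.3% of all genes tested. They were Apob (log2 fold change of -1.05), which encodes the apolipoprotein of very low density lipoprotein, and Cps1 (-1.62), the entry enzyme of the urea cycle. The other log2 fold changes were 0.06 for Ttr (unadjusted p of 0.805), -0.28 for Alb (0.33), -0.53 for Tf (0.175) and -0.71 for Hnf4a (0.0931). In whole liver, fewer hepatocytes and lower levels of single marker RNAs per hepatocyte cannot be told apart. Divided within each library by the summed CPM of the 6 markers, a ratio chosen after the data were seen, Tat had 16.4, 20.2 and 16.3 per 1000 marker CPM under HFD, compared with 10.03, 5.12 and 11.7 under HTG, and Hgd had 6.08, 6.78 and 5.22 against 4.68, 3.42 and 3.62, so that both remained separate between the groups. Tdo2 had 13.04, 16.97 and 6.31 against 6.63, 4.21 and 2.96, so that HFD library 3 fell just below HTG library 1. On this scale Hpd and Kynu overlapped between the groups, and Fah and Haao were higher in all HTG libraries. Relative to Alb alone, Tat and Hgd were separate between the groups in the same direction, Tdo2, Hpd, Kynu and Fah overlapped, and Haao was higher.

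Kynu, Kmo and Ido1 are also expressed by macrophages. Of the 6 macrophage markers, 1, Adgre1, was lower at an unadjusted p under 0.05, against 12.4% of all genes tested. The sum of the 6 overlapped between the groups, at 284 to 620.2 CPM in the HFD libraries and 269.6 to 459 CPM in the HTG libraries. Sums of the other leukocyte, endothelial, stellate, biliary and red cell markers overlapped as well. The 3 kidney markers found in the table, an organ that also breaks down these amino acids, summed to at most 0.194 CPM. The part of these cells in the results was not tested.

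The enzymes around the 8 genes were read from 4 lists that held 41 genes of the table, of which 35 were tested. At an unadjusted p under 0.05, 10 of the 35 were lower and 4 were higher in the HTG group, against 12.4% and 12.3% of all genes tested, so the 4 higher genes were about as many as that share gives. None had an adjusted p under 0.05 in edgeR's quasi-likelihood test, and the median log2 fold change was -0.28. In DESeq2, Got1, Gch1, Qdpr, Kyat1, Maob and Cyp1a2 were among those that had adjusted p-values under 0.05.

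Of the 8 tested genes listed for phenylalanine and tyrosine, 3 were lower and 0 higher at an unadjusted p under 0.05. The shares over all genes tested were 12.4% and 12.3%. The cytosolic and mitochondrial aspartate aminotransferases Got1 and Got2, which also accept aromatic amino acids, had log2 fold changes of -1.53 and -0.56 with unadjusted p-values of 0.0087 and 0.0465. Got1 was spread widely in the HFD group, with 177 FPKM in HFD library 2 and 81.6 and 78.6 in the other two, and without that library its log2 fold change was -0.97 (unadjusted p of 0.0301). Gstz1, the isomerase between Hgd and Fah, had a log2 fold change of -0.28 and an unadjusted p of 0.186. Mif, Ddc and Fahd1 did not have an unadjusted p under 0.05 either.

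Hydroxylation of the aromatic amino acids needs tetrahydrobiopterin. Of the 8 genes that make, recycle or regulate this cofactor, 3 were lower and 2 higher at an unadjusted p under 0.05. All genes tested gave 12.4% lower and 12.3% higher. Among the lower were Gch1, the entry enzyme of its synthesis, at a log2 fold change of -0.70, and Qdpr, which regenerates it after each round of hydroxylation, at -0.77. Higher were Pts, the second enzyme of synthesis, at 0.58, and Pcbd2, a pterin dehydratase, at 1.02, or 1.54 without HFD library 1. Its relative Pcbd1, the more abundant per length at 146 to 219.5 FPKM over the 6 libraries, had a log2 fold change of 0.28 with an unadjusted p of 0.148. Qdpr measured 183, 136 and 239.6 FPKM under HFD, compared with 119, 81.3 and 112 FPKM under HTG, without overlap.

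Around kynurenine, Kyat1, a transaminase that diverts kynurenine to kynurenic acid, was higher in the HTG group. It measured 54.9, 28.4 and 55.7 FPKM under HFD, compared with 84.8, 125 and 120.3 FPKM under HTG, and the lowest HTG value exceeded the highest HFD value. Kyat1 had a log2 fold change of 1.31 (standard error 0.28), with an unadjusted p of 0.00149 and an adjusted p of 0.0605 in edgeR's quasi-likelihood test. The other transaminases of this reaction had log2 fold changes of -0.46 (Aadat, unadjusted p of 0.0406) and -0.18 (Kyat3, unadjusted p of 0.405). Afmid, which acts directly after Tdo2, had a log2 fold change of -0.61 and an unadjusted p of 0.0894, with an overlapping gene of the same strand, Gm20708, whose counts ran from 57 to 9922 and make those of Afmid uncertain. Ido1, the inducible enzyme that opens the same tryptophan ring outside the liver, had 0 counts in every library, which allows up to 12 counts, equal to 0.123 to 0.256 CPM over the 6 libraries. Its relative Ido2 overlapped between the groups, with a log2 fold change of -0.27 and an unadjusted p of 0.475.

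Toward NAD, Acmsd, which draws the intermediate away from NAD, had a log2 fold change of -0.93 with an unadjusted p of 0.0627, and its groups overlapped. Qprt, which takes up quinolinate, had -0.22 and an unadjusted p of 0.441, and Nadsyn1, which closes the synthesis, had 0.31 and an unadjusted p of 0.187. Of the enzymes that join the nucleotide to adenosine, Nmnat1 had a log2 fold change of 0.42 (unadjusted p of 0.0407). Nmnat2 also had an unadjusted p under 0.05 (0.0356), from only 22, 51 and 14 counts under HFD, compared with 7, 15 and 4 counts under HTG, at or near the limit of 12 counts that an empty gene allows, and without HFD library 2 that p was 0.239. Of the further tryptophan genes, Maob, which oxidises amines, and Cyp1a2, a cytochrome induced through the receptor Ahr, had log2 fold changes of -0.64 and -1.13, with unadjusted p-values of 0.0113 and 0.00232. Ahr itself had 0.14 and an unadjusted p of 0.674.

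**Figure D3:**
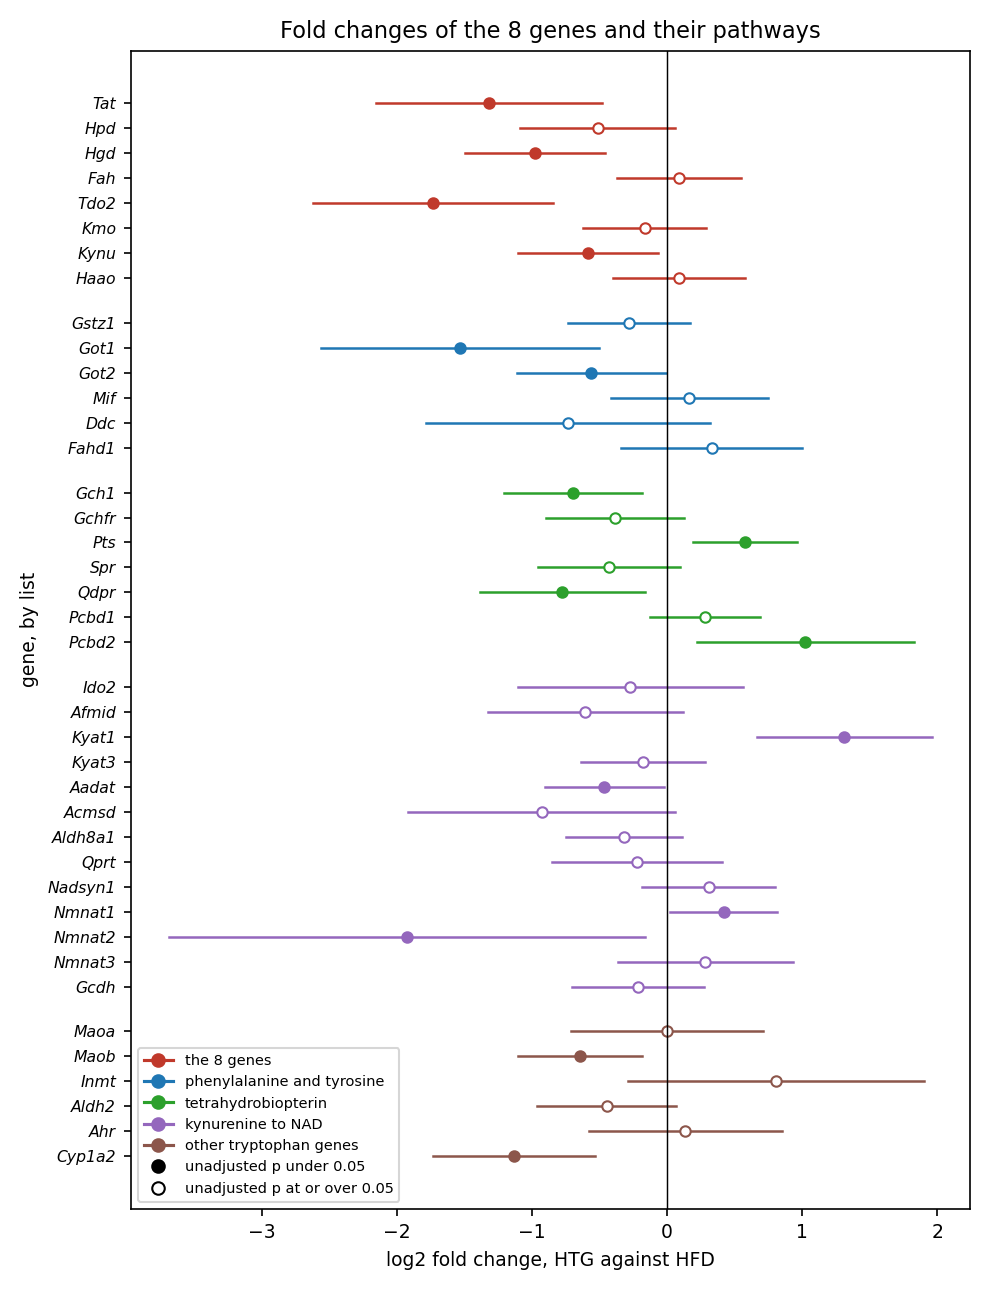
Log2 fold change of the HTG group against the HFD group with its 95% interval for the 8 genes and tested genes of the surrounding pathways, coloured by list, from edgeR's quasi-likelihood fit. Filled points mark an unadjusted p under 0.05: Tdo2, Tat, Hgd and Kynu lie to the left of 0 among the 8 genes, and Kyat1 (1.31), Pcbd2 (1.02), Pts (0.58) and Nmnat1 (0.42) lie to the right.

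NAD can also be made from niacin. Of the 7 tested genes of NAD salvage, phosphorylation and removal, 3 were lower at an unadjusted p under 0.05 and 1 was higher. Over all genes tested, 12.4% were lower and 12.3% higher at that threshold. Lowest in p were Nadk and Nadk2, which phosphorylate NAD to NADP, at log2 fold changes of -0.71 and -0.67 (unadjusted p-values of 0.00445 and 0.00743), and Nmrk1, a nicotinamide riboside kinase, had 0.53 (unadjusted p of 0.0489). Of the 6 tested amino acid carriers, 4 were lower and 0 higher at an unadjusted p under 0.05, and the smallest p-values were those of Slc16a10, the carrier named for aromatic amino acids, at -0.72 (0.0178, with overlapping groups in CPM) and of Slc38a4 at -0.59 (0.0218).

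Breakdown of other amino acids was read from further lists. Histidine is degraded in the same cells by Hal, Uroc1, Amdhd1 and Ftcd, and of the 5 genes listed for histidine 1 was higher (Ftcd, 0.82, unadjusted p of 0.0125) and 0 were lower, with a median log2 fold change of 0.18. Of 20 genes for branched-chain amino acids, 7 were lower and 1 was higher at an unadjusted p under 0.05, with a median of -0.27. For both lists, the shares over all genes tested were 12.4% lower and 12.3% higher. Named by the smallest p, Dld, a subunit shared by the 2-oxo acid dehydrogenase complexes, and Pcca, of propionyl-CoA carboxylase, had -0.84 and -0.82, and Bcat2, which removes the amino group, had 0.80. Whether these lists differ from the 8 genes was not tested.

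Tat and Tdo2 respond to glucocorticoids, as do the 14 genes of another list, which holds the glucocorticoid receptor gene Nr3c1 itself. Of these 14, 3 were lower and 0 higher at an unadjusted p under 0.05, with a median log2 fold change of -0.47. Among all genes tested the shares were 12.4% and 12.3%. Fitted log2 fold changes were negative in 11 of the 14 and positive in 3. In CPM the groups did not overlap in 4 of the 14, all lower, against 15.5% lower and 16.5% higher of the genes tested. G6pc1, of glucose release, and Sgk1 had the smallest p-values, at log2 fold changes of -1.84 (0.0326, with overlapping groups) and -0.48 (0.0349). The metallothionein genes Mt1 and Mt2 had 1.08 and 1.25 (unadjusted p-values of 0.204 and 0.191) with overlapping groups, Fkbp5 had -1.05 (unadjusted p of 0.054) with overlapping groups, and Nr3c1 had -0.03 (unadjusted p of 0.865).

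The 3 genes that differed most kept their sign in the other fits, which reuse the same libraries. Their groups did not overlap, so leaving out 1 library could hardly turn the sign. In 16 alternative fits, 6 of them with 1 library left out, the log2 fold change of Tdo2 ran from -2.15 to -1.40, that of Tat from -1.61 to -1.0 and that of Hgd from -1.18 to -0.84, and all 3 had an unadjusted p under 0.05 in each of the 16. Kynu had one in 12 of the 16 fits and Hpd in 2, and Fah, Kmo and Haao in 0. An adjusted p under 0.05 was reached by Tdo2 and by Hgd in 6 of the 16 fits and by Tat in 3.

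**Figure D4:**
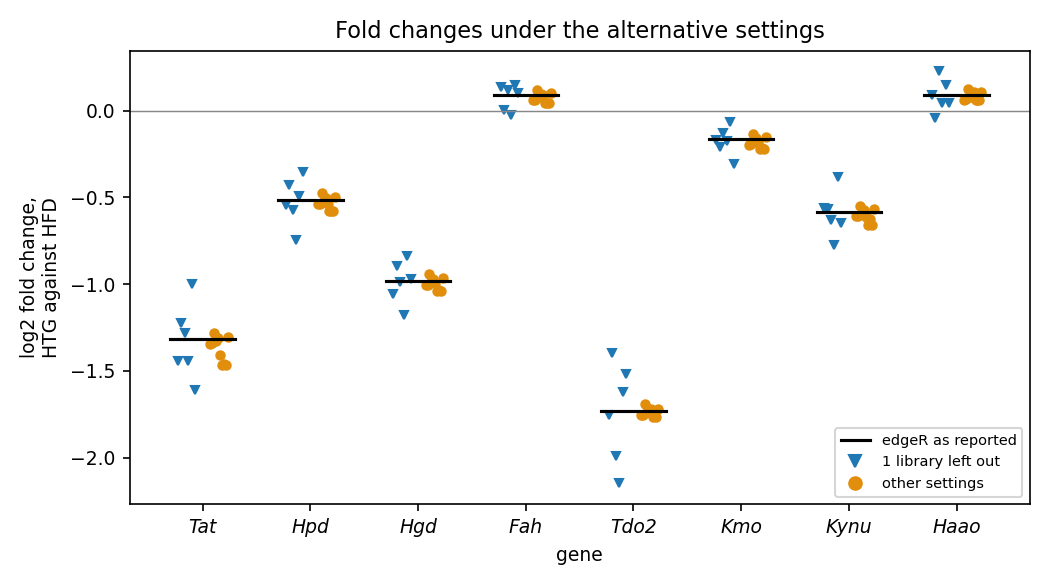
Log2 fold change of each of the 8 genes in the fit as reported (black line), in the 6 fits with 1 library left out (blue triangles) and in the 10 other settings (orange circles). Tdo2, Tat, Hgd, Hpd, Kynu and Kmo stayed below 0 in all 16 alternatives, and Fah and Haao lay near 0 and crossed it once each.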

How the data were processed

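Liver RNA of 3 HFD and 3 HTG libraries was compared, and the libraries were grouped by their titles. Per the labels, HISAT2, StringTie and SAMtools were used on the build mRatBN7.2, although the rows are mouse Ensembl genes, so coordinates are printed as listed, with no build. The study's methods describe poly(A) selection and strand-marked paired-end libraries. The authors deposited estimated counts as whole numbers, not normalised between libraries, and FPKM values that they scaled by transcript length and depth. Pooling of animals is not described in the sources used here.

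The estimated counts, which were whole, were tested with edgeR 4.0.16 (TMM, filterByExpr, glmQLFit and glmQLFTest, group only) in R 4.3.3, with Benjamini-Hochberg adjustment over all genes tested. Intervals are 95% intervals of the fitted log2 fold change. DESeq2 1.42.0 and limma 3.58.1 on log2(FPKM + 0.1) were alternatives, with others under the closing section. Only edgeR as reported, DESeq2 and limma were tried on simulated data, and limma was given CPM there in place of FPKM. The other alternative fits, including those with 1 library left out, were not tested on simulated data. The limit of an empty gene was 3 fragments, or 12 counts under the assumed 4 counts per fragment, and covers counting error only.

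The 8 genes and all lists were chosen with earlier results of these data known. Named beside them are fixed pathway genes, any other gene of the 4 pathway lists with an unadjusted p under 0.05, and from further lists the genes of smallest p. Levels were compared between genes in FPKM. Fkbp5, Nr3c1, Mt1, Mt2, Mif, Ddc, Fahd1, Ahr and the marker genes named with values were chosen after their values were seen. Tf and G6pc1 stand in the table as Trf and G6pc. Reference sequences of mouse were not used here, and none are printed. Some genes of the lists are counted but not reported here by name.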

Additional observations from a re-analysis of the deposited data

How the results depend on the processing

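The number of the 8 genes lower at an adjusted p under 0.05 was 0 in edgeR as reported, 3 in DESeq2 and in limma on log2(FPKM + 0.1) and on log2(FPKM + 1), and 2 with at least 10 counts required in every library and with counts divided by 4. Leaving out 1 library at a time gave 0 to 2, with 2 only without HTG library 1. In that fit 419 of the 19304 genes tested were lower at that threshold. The number lower at an unadjusted p under 0.05 stayed between 3 and 5 in those 6 fits. All genes lower at that threshold ran from 1545 of 19095 (without HTG library 2) to 2866 of 19304 (without HTG library 1). In those 6 fits the median log2 fold change of the 8 genes stayed between -0.76 (without HTG library 1) and -0.44. In the same 6 fits Fah ran from -0.024 (without HTG library 1) to 0.15 and Haao from -0.041 (without HFD library 2) to 0.23, with the sign turned only in the 2 named fits, and without an unadjusted p under 0.05 in either fit. Of the other pathway genes, of which 35 or 36 were tested in these 6 fits, those lower at an unadjusted p under 0.05 numbered 6 (without HFD library 1 or HTG library 2) to 15 (without HTG library 1), and those higher 2 (without HFD library 3) to 4. Over all genes, those lower and higher at an adjusted p under 0.05 numbered 1171 and 933 of 19333 in DESeq2. Without a filter they numbered 76 and 86 of 29763, and with at least 10 counts 315 and 369 of 15454. In limma they numbered 552 and 326 with a pseudocount of 0.1 and 555 and 329 with 1, each of 10930. Limma without a filter gave 0 and 0 of 29341, and counts divided by 4 gave 363 and 459 of 14884. When 1 library was left out, such genes ranged from 0 to 419 lower and from 0 to 234 higher, both highest without HTG library 1. Higher genes at an unadjusted p under 0.05 numbered 1413 and 1416 in the filtered limma fits, over 10930 genes. With the replicate number as a block, 0 genes in either direction had an adjusted p under 0.05. Below 0.05 in unadjusted p stood 4 of the 8 genes, with 8 lower and 3 higher among 35 pathway genes. Across all 18455 genes of this block fit, that limit was met by 1941 lower and 1926 higher ones. Deviations of libraries with the same number correlated at -0.14, -0.12 and 0.20, and those with other numbers at -0.20 to 0.30. So few values cannot tell whether the libraries were paired, and the labels do not say. The cause of these shifts was not tested. Scaling moved the median of all genes by under 0.1.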

Other observations

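The authors' table also carries KEGG pathway names, and these, and the genes named from them, were chosen after the data were seen. Outside the 8 genes and the 4 lists, 19 tested genes carried the name Tryptophan metabolism. Of these, 12 were lower and 1 was higher in the HTG group at an unadjusted p under 0.05, with a median log2 fold change of -0.61, against 12.4% lower and 12.3% higher of all genes tested. Most of the lower genes named here act in later, general steps that this route shares with fatty acid and lysine breakdown. Hadha and Hadh, of mitochondrial beta-oxidation, had log2 fold changes of -1.13 and -0.94. Dld and Dlst, subunits of the 2-oxo acid dehydrogenase complexes, had -0.84 and -0.77, and Aldh7a1, of lysine breakdown, had -0.63. Cat, catalase, had 1936 ± 151 CPM in the HFD group and 1336 ± 166 CPM in the HTG group (SD, n = 3 each). Dhtkd1, of lysine and tryptophan breakdown, was the higher one, with 53.3 ± 10.4 CPM in the HFD group and 86.6 ± 26.3 CPM in the HTG group (SD, n = 3 each). Ehhadh rested on a wide HFD group, with 389 ± 435 CPM against 106 ± 49.3 CPM (SD, n = 3 each). Of the 12 and 7 tested genes that carried the names Tyrosine metabolism and Phenylalanine metabolism outside the lists, 0 had an unadjusted p under 0.05 in edgeR's quasi-likelihood test, and none had an adjusted p under 0.05 there. The difference between these sets was not tested.

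The libraries were also searched for genes whose centred log2 CPM followed each of the 8 genes over the 6 libraries, among 10017 genes with a mean of at least 5 CPM. The nearest gene by root mean square difference was Ano10 for Tat (0.18 log2 units), Rab5if for Tdo2 (0.17), Man2a1 for Hgd (0.04), Gtpbp4 for Hpd (0.06), Psmg1 for Fah (0.02), Nsd2 for Kmo (0.04), Atp6v0e for Kynu (0.05) and 5730455P16Rik for Haao (0.05). Among the 8 genes themselves, Fah and Haao were nearest to each other (0.12), but 129 and 95 other genes lay nearer to Fah and to Haao. Tat and Tdo2 were each nearest to Hgd (0.39 and 0.54), and 123 and 293 other genes lay nearer to them than Hgd did.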
